A study of Arabidopsis thaliana with 4 samples.

Results

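The 9 genes described here carry steps of systemic resistance in Arabidopsis thaliana, together with a pair of small pathogen-responsive genes, PNP-A and PCC1. They were listed by locus: ALD1 (AT2G13810), SARD4 (AT5G52810) and FMO1 (AT1G19250), DIR1 (AT5G48485), AZI1 (AT4G12470), EARLI1 (AT4G12480) and AZI3 (AT4G12490), PNP-A (AT2G18660) and PCC1 (AT3G22231). All 9 were among the 20462 genes kept on the arrays, of 25410 loci with a matched probe, 8 with 1 probe each and PCC1 with 3. The members were selected on known function together with their measured log2 differences between the 3 genotypes, which were already known, so every difference between genotypes below is a description and carries no test.

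Whole seedlings were compared 14 days after germination. AtC3H17 OX plants overexpress AtC3H17, a CCCH-type zinc finger protein gene, and were hybridised to 2 arrays. The atc3h17-1 plants, named after an allele of the same gene, and wild-type (WT) plants had 1 array each. All 3 genotypes were in the Col-0 ecotype, untreated, and grown on agar medium with 1.5% sucrose at 22 °C in short days of 8 h light and 16 h dark. The promoter of the overexpression construct, the number of independent lines and the number of seedlings pooled per RNA sample are not given in the sources used here.

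Systemic acquired resistance is the state in which a locally infected plant becomes less susceptible in its distant leaves. One arm of it runs through N-hydroxypipecolate, which is made from lysine: the aminotransferase ALD1 starts the path, the reductase SARD4 helps to complete pipecolate, and the flavin-dependent monooxygenase FMO1 hydroxylates it. Another arm rests on lipid transfer proteins. DIR1 is needed for the long-distance signal, AZI1 for priming by azelaic acid, and EARLI1 and AZI3 are close relatives of AZI1. PNP-A encodes a secreted natriuretic peptide-like protein, and PCC1 a small membrane-associated protein under pathogen and circadian control.

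The RNA was labelled with Cy3 and read on 1-colour Agilent arrays that lay on 1 slide. The signals below are Feature Extraction's processed signals, in arbitrary intensity units, each given ± the software's own error of the spot. A level is the log2 of that signal minus the log2 of the 75th percentile of the same array, which was 3407 and 3383 on the AtC3H17 OX arrays, 3273 on the atc3h17-1 array and 3487 on the WT array. Differences and folds were taken between levels of the same probe, never between probes. The median probe of 30340 differed by 0.0322 (log2) between the AtC3H17 OX arrays, which was below the median SD of repeated spots on either array (0.0528 and 0.0454). Their difference was not shared by separate probes of a gene (r = 0.0037 across 5698 genes, which are not independent replicates, against 0.537 to 0.643 between arrays of unlike genotype). Both arrays were therefore counted as 1 sample, although the labels call them replicates. Between them 238 genes (1.16%) still differed at least 2-fold, against 5.25% to 8.59% of genes between arrays of unlike genotype. Each genotype thus had 1 sample, and no p-value is given. The WT array was the noisiest: its repeated spots had a median SD of 0.168, against 0.0548 for the atc3h17-1 array. The software's spot error does not carry this: for a bright spot such as that of DIR1 it was 0.144 (log2) on every array. It also holds no spread between plants. Both lines were set against that same WT array, so the 2 comparisons with WT are not independent of each other.

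The locus AT2G02160 was taken as AtC3H17. Its probe A_84_P803253 had signals of 7693 and 7712 on the AtC3H17 OX arrays and 8.60 on the atc3h17-1 array, where it was not well above background, against 1730 on the WT array. Probe A_84_P847169 was also 5.60-fold higher in AtC3H17 OX than in WT, and stood at 1.41-fold in atc3h17-1. Probe A_84_P221496 stood at 0.981-fold in AtC3H17 OX and was at least 502-fold lower in atc3h17-1. The probes thus disagreed in both lines. Of the 8 leaf markers none differed 2-fold between genotypes. Of 13 root markers 12 were kept and only IRT1 was not well above background on any array. Root and leaf markers were thus both detected in these whole seedlings.

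The data showed a split within the 9 genes. PNP-A, PCC1 and FMO1 were far higher in both lines than in WT, ALD1 was detected in AtC3H17 OX alone, SARD4 and AZI1 stood close to WT, and EARLI1, AZI3 and DIR1 were lower than WT to different degrees. By size, 4 of the 9 genes were at least 2-fold higher in AtC3H17 OX on both arrays and 1 was at least 2-fold lower, where 4.37% and 2.78% of all 20462 genes were. In atc3h17-1, 3 of the 9 were at least 2-fold higher and 0 lower, where 4.34% and 4.24% of all genes were. With normexp background correction the genes at least 2-fold higher and lower numbered 859 and 286 in AtC3H17 OX, against 894 and 568 with the processed signal, and 815 and 424 in atc3h17-1, against 889 and 868. The median difference of the 9 genes was 0.16 in AtC3H17 OX and -0.02 in atc3h17-1, beside -0.03 and -0.02 over all genes. A median near 0 here stands for genes far apart in both directions. In whole seedlings, fewer cells of a type and less RNA per cell cannot be told apart.

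**Figure D1:**
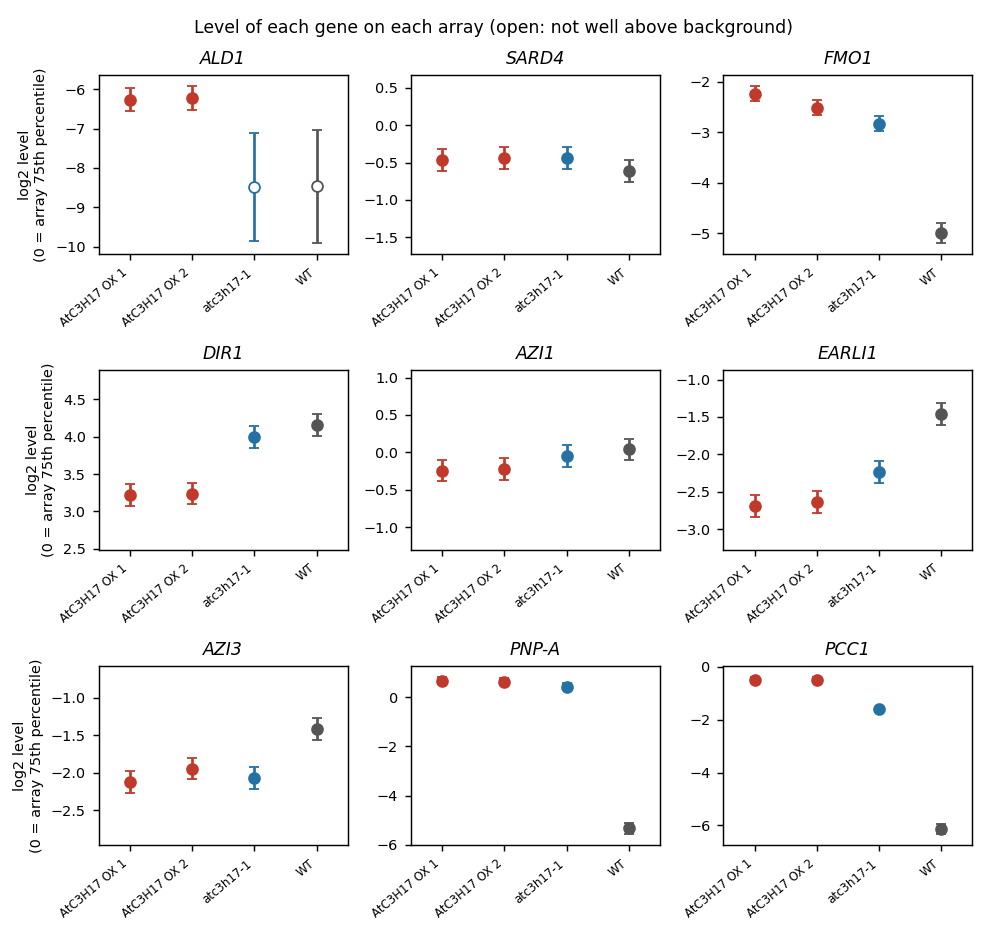
Log2 level of each of the 9 genes on the 4 arrays, relative to the array's 75th percentile, with the software's spot error as bars. Open points were not well above background. The AtC3H17 OX and atc3h17-1 points of PNP-A, PCC1 and FMO1 all lie above the WT point, while those of EARLI1 and AZI3 lie below it.

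PNP-A had signals of 5427 ± 543 and 5261 ± 526 on the AtC3H17 OX arrays and 4391 ± 439 on the atc3h17-1 array, against 86.5 ± 12.9 on the WT array. The WT spot was dim but still well above background, and the 3 other arrays lay far above it with no overlap of the spot errors. The difference from WT was 5.99 ± 0.24 (log2, spot error) in AtC3H17 OX, a 63.5-fold excess, and 5.76 ± 0.26 in atc3h17-1, a 54.1-fold excess. Among all 20462 genes these differences ranked 2 and 4 from the highest. AtC3H17 OX and atc3h17-1, set against each other without the WT array, differed by 0.23 ± 0.18. The fold over WT depended on how background was treated: with normexp correction it was 31.4 in AtC3H17 OX and 27.0 in atc3h17-1.

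PCC1 was read by 3 probes. A_84_P586578 gave signals of 3040 ± 304 and 3113 ± 311 on the AtC3H17 OX arrays and 1437 ± 144 on the atc3h17-1 array, against 61.1 ± 13.5 on the WT array. A_84_P812905 gave 2308 ± 231, 2253 ± 225 and 995 ± 99.8 on the same arrays of the lines, against 58.3 ± 10.8 in WT. A_84_P799279 gave 2066 ± 207, 2050 ± 205 and 896 ± 89.9, against 34.8 ± 8.82 in WT, where it was not well above background. All 3 probes ordered the genotypes in the same way, with AtC3H17 OX highest, atc3h17-1 in between and WT lowest.

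In AtC3H17 OX the 3 PCC1 probes were 51.7-fold, 40.2-fold and at least 54.4-fold above WT, and in atc3h17-1 they were 25.04-fold, 18.2-fold and at least 24.6-fold above WT, in the order A_84_P586578, A_84_P812905, A_84_P799279. The mean over the probes differed from WT by 5.65 ± 0.19 in AtC3H17 OX and by 4.54 ± 0.20 in atc3h17-1, at ranks 7 and 25 of all genes. With normexp correction the mean fold was 21.2 in AtC3H17 OX, against 50.2 with the processed signal, and 10.3 in atc3h17-1, against 23.2. The lines also differed from each other. The level of PCC1 was 2.16-fold higher in AtC3H17 OX than in atc3h17-1 (1.11 ± 0.10), on each AtC3H17 OX array and by between 2.06-fold and 2.21-fold on each probe. In this comparison 2.8% of all genes were at least 2-fold higher and 1.66% at least 2-fold lower. PCC1 was the only one of the 9 genes well above background in both lines that passed 2-fold between them.

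**Figure D2:**
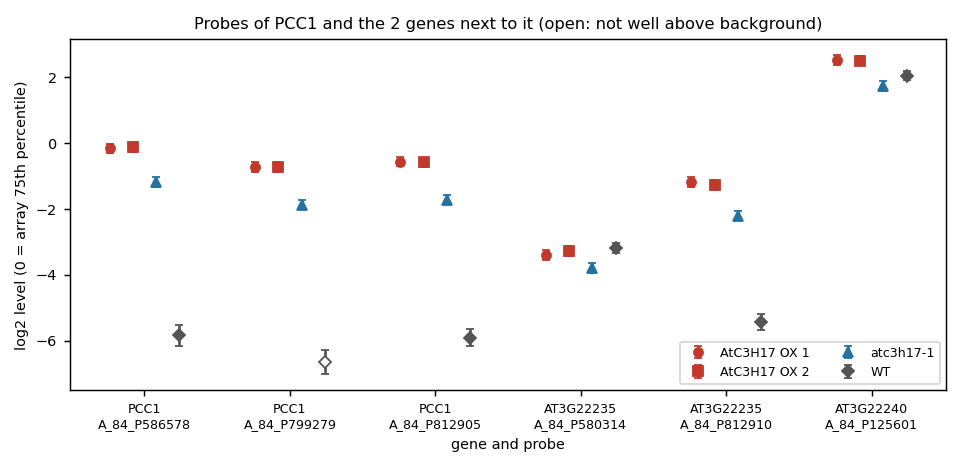
Log2 level on each array for the 3 probes of PCC1, the 2 probes of AT3G22235 and the probe of AT3G22240, with spot errors. Levels are to be read across arrays within 1 probe. Both the PCC1 probes and probe A_84_P812910 of AT3G22235 run from AtC3H17 OX at the top to WT at the bottom, while A_84_P580314 does not.

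In the order of genes on the chromosome, PCC1 is followed by AT3G22235 and AT3G22240, both genes of the same small cysteine-rich family. The probes of AT3G22235 disagreed. A_84_P812910 had signals of 1498 and 1408 on the AtC3H17 OX arrays and 713 on the atc3h17-1 array, against 80.7 on the WT array, so that it was 18.5-fold and 9.41-fold above WT. A_84_P580314, designed to another transcript of the locus, had 325 and 351 in AtC3H17 OX and 238 in atc3h17-1, against 386 in WT. The mean of both probes, 2.03 in AtC3H17 OX and 1.32 in atc3h17-1, therefore describes neither. Probe sequences were not used here, and whether A_84_P812910 also binds the PCC1 transcript was not tested. AT3G22240 stood at 0.46 in AtC3H17 OX and at -0.32 in atc3h17-1.

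FMO1, which makes N-hydroxypipecolate, had signals of 724 ± 72.8 and 592 ± 59.7 on the AtC3H17 OX arrays and 461 ± 46.8 on the atc3h17-1 array, against 110 ± 14.8 on the WT array. Both lines lay above WT without overlap of the spot errors. FMO1 was 6.13-fold higher in AtC3H17 OX (2.62 ± 0.22) and 4.48-fold higher in atc3h17-1 (2.16 ± 0.24). The AtC3H17 OX arrays differed from each other by 0.28, more than for the other 8 genes, and the excess over atc3h17-1 (0.45 ± 0.18) was 0.31 with one of them and 0.59 with the other. The direction between the lines was the same on both arrays, but its size was not well determined.

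ALD1, the aminotransferase at the start of the path, was near the limit of detection. Its probe had signals of 44.2 ± 8.91 and 45.4 ± 9.38 on the AtC3H17 OX arrays and 9.19 ± 8.74 on the atc3h17-1 array, against 9.89 ± 9.85 on the WT array. It was well above background on both AtC3H17 OX arrays and on neither of the others. The dimmest probes called well above background had signals of 34.0 to 38.8. Set against these, the excess was 1.18-fold over WT and 1.13-fold over atc3h17-1. These are not guaranteed minima, since a spot of another gene, SARD1, had a WT signal of 60.1 and was not well above background. ALD1 counts among the 4 genes at least 2-fold higher through its values below background (2.22 ± 1.45), and with normexp correction it was at 0.76.

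SARD4, the reductase, showed no such difference. Its signals were 2466 ± 247 and 2502 ± 250 on the AtC3H17 OX arrays and 2408 ± 241 on the atc3h17-1 array, against 2278 ± 228 on the WT array. The difference from WT was 0.16 ± 0.18 in AtC3H17 OX and 0.17 ± 0.20 in atc3h17-1, each smaller than its spot error. With a position trend removed from each array, an alternative chosen after seeing the data, SARD4 was at 0.32 in AtC3H17 OX and 0.30 in atc3h17-1, above those errors but far short of 2-fold. The 3 enzymes of the path thus did not share 1 pattern.

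**Figure D3:**
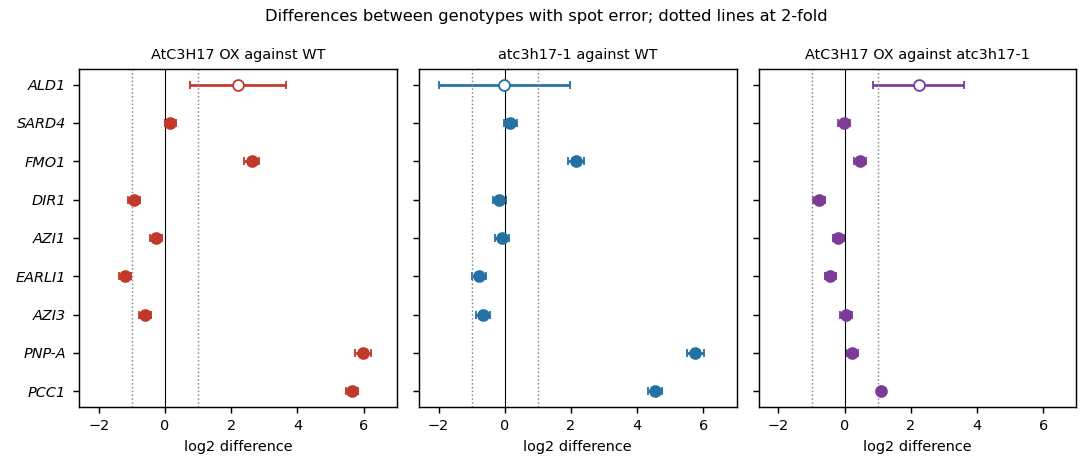
Log2 differences of the 9 genes between genotypes with the combined spot error as bars and dotted lines at 2-fold. ALD1 is drawn open because it was not well above background in atc3h17-1 and WT. PNP-A and PCC1 lie between 4.54 and 5.99 above WT in both lines. In the comparison of the lines with each other ALD1 lies at 2.23 and the other points between -0.77 and 1.11.

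The lipid transfer protein genes differed in the other direction or little. DIR1 had signals of 31751 ± 3175 and 31912 ± 3191 on the AtC3H17 OX arrays and 52167 ± 5217 on the atc3h17-1 array, against 62141 ± 6214 on the WT array. It was 1.90-fold lower in AtC3H17 OX than in WT (-0.93 ± 0.18), just short of the 2-fold threshold, and 1.70-fold lower in AtC3H17 OX than in atc3h17-1 (-0.77 ± 0.18). In atc3h17-1 the difference from WT was -0.16 ± 0.20, within the spot error. Both AtC3H17 OX arrays thus lay below the other 2 arrays, and the spot errors of atc3h17-1 and WT overlapped. The gene next to it, DIR1-like (AT5G48490), stood at 0.10 in AtC3H17 OX and at 0.11 in atc3h17-1.

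EARLI1 had signals of 530 ± 53.5 and 542 ± 54.8 on the AtC3H17 OX arrays and 695 ± 69.9 on the atc3h17-1 array, against 1265 ± 127 on the WT array. It was 2.30-fold lower in AtC3H17 OX (-1.20 ± 0.18) and 1.71-fold lower in atc3h17-1 (-0.77 ± 0.20). AZI3 had signals of 783 ± 78.7 and 878 ± 88.3 on the AtC3H17 OX arrays and 778 ± 78.2 on the atc3h17-1 array, against 1303 ± 131 on the WT array. The AZI3 differences from WT were about equal in both lines, -0.61 ± 0.18 in AtC3H17 OX and -0.65 ± 0.20 in atc3h17-1, but shrank to -0.24 and -0.28 with normexp correction.

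AZI1, the best known gene of this cluster, had signals of 2881 ± 288 and 2895 ± 290 on the AtC3H17 OX arrays and 3168 ± 317 on the atc3h17-1 array, against 3588 ± 359 on the WT array. Its differences from WT were -0.27 ± 0.18 in AtC3H17 OX and -0.09 ± 0.20 in atc3h17-1, the second lying between -0.19 and -0.05 over the alternatives. AZI1, EARLI1 and AZI3 lie in this order on the chromosome among further genes of the family, and their relative AZI4 (AT4G12500) was at -1.23 against WT in AtC3H17 OX and at -1.01 in atc3h17-1. Since the genes are close paralogs and probe sequences were not used here, binding of one gene's RNA to another's probe was not tested, and the individual values are uncertain to that extent.

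Other genes of the same pathways were read from lists of known function. The list counts are to be read beside the shares of all genes at least 2-fold higher and lower than WT. These shares were 4.37% and 2.78% in AtC3H17 OX and 4.34% and 4.24% in atc3h17-1. The 10 listed genes around pipecolate, its glucosylation and its lysine precursor were all kept and had a median of 0.38 in AtC3H17 OX and 0.14 in atc3h17-1, with 1 at least 2-fold higher and 0 lower in each line. The medians were 0.14 and 0.03 with normexp correction, and that of AtC3H17 OX was also 0.14 over probes well above background on all arrays. The gene counted was SARD1, a transcription factor of salicylate and pipecolate synthesis, which was not well above background in WT. Against its WT signal of 60.1 ± 14.4, SARD1 was 3.03-fold higher in AtC3H17 OX and 3.49-fold higher in atc3h17-1. These folds are estimates from a dim spot and not lower bounds. Its partner CBP60G stood at 0.61 in AtC3H17 OX and at 0.20 in atc3h17-1. LKR/SDH, the lysine-degrading enzyme, stood at 0.69 and 0.79, and DHDPS1, an enzyme of lysine synthesis, at -0.72 and -0.50, in the same order of lines.

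UGT76B1, which glucosylates N-hydroxypipecolate and salicylate, was the one gene of this list at least 2-fold apart between the lines, and was picked out after its values were seen. Its brighter probe, A_84_P74014, was 2.78-fold higher in AtC3H17 OX than in atc3h17-1, and stood at 0.09 against WT in AtC3H17 OX and at -1.38 in atc3h17-1. The other probe, A_84_P822840, was well above background on the AtC3H17 OX arrays only, so the mean of both probes (0.71 in AtC3H17 OX and -0.91 in atc3h17-1) rests partly on values below background.

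Of 33 listed genes of systemic resistance signalling 32 were kept, 3 at least 2-fold higher and 0 lower in AtC3H17 OX, and 4 higher and 0 lower in atc3h17-1, with medians of 0.26 and 0.12. The median in atc3h17-1 was 0.24 with normexp correction and 0.25 with the position trend removed. The genes were NIMIN1, PR2, PBS3 and, in atc3h17-1, PR1. NIMIN1, an interactor of the salicylate receptor NPR1, was not well above background in WT (signal of 25.2). It was at least 4.88-fold higher in AtC3H17 OX and at least 3.38-fold in atc3h17-1. In the same order of lines, the glucanase gene PR2 stood at 2.07 and 1.16. PBS3, an enzyme of salicylate synthesis, stood at 1.63 and 1.07 as the mean of 2 probes. The PBS3 probes disagreed in size: A_84_P13961 was at 2.51 in AtC3H17 OX and 1.75 in atc3h17-1, and A_84_P829727 at 0.75 and 0.38, short of 2-fold. Without PBS3, 2 genes of the list were higher in AtC3H17 OX and 3 in atc3h17-1. Probes were also unequal for genes not counted, such as PR5. Its probe A_84_P808719 was at 1.07 in AtC3H17 OX and 0.86 in atc3h17-1, and A_84_P14299 at 0.43 and 0.26. The PR1 probe had signals of 45.4 and 33.1 on the AtC3H17 OX arrays, the second not well above background, and 84.6 on the atc3h17-1 array, against 20.9 on the WT array, where it was not well above background. PR1 was at least 2.32-fold higher in atc3h17-1. The receptor genes NPR1, NPR3 and NPR4 stood between -0.02 and 0.42 in AtC3H17 OX and between 0.0034 and 0.60 in atc3h17-1.

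**Figure D4:**
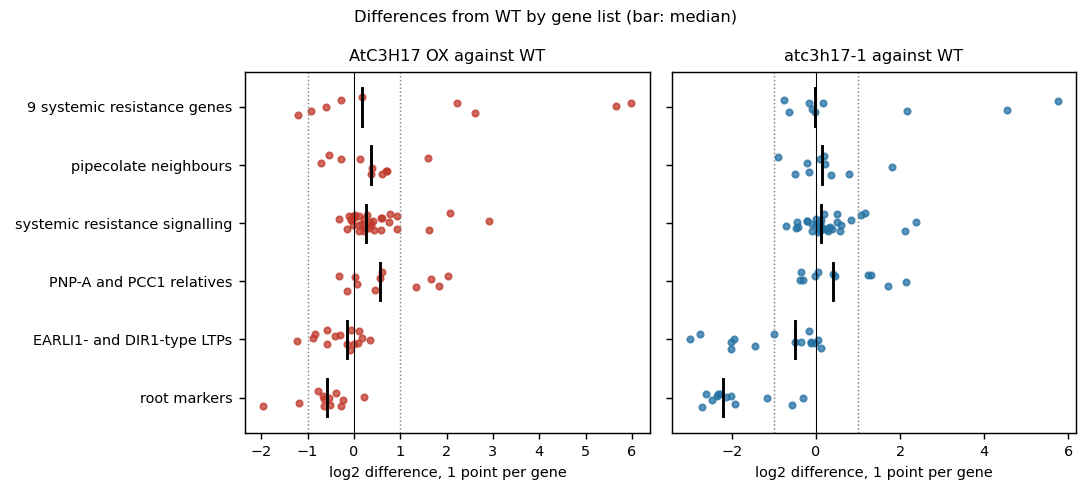
Log2 differences from WT in AtC3H17 OX and atc3h17-1 for the 9 genes and 5 gene lists, 1 point per gene, bars at the medians and dotted lines at 2-fold. The medians of the lipid transfer protein list and the root markers lie below WT in atc3h17-1 (-0.50 and -2.21). In the list of PNP-A and PCC1 relatives no relative of PNP-A was measured. Its kept genes lie mostly above WT in both lines (medians of 0.57 and 0.40).

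Of 14 listed relatives of PNP-A and PCC1, 12 were matched to a probe and 11 were kept. EGC1, the relative of PNP-A in the list, had no matched probe, so the values cover relatives of PCC1 only. The medians were 0.57 in AtC3H17 OX and 0.40 in atc3h17-1 (0.38 and 0.22 with normexp correction). Of the 11, 4 were at least 2-fold higher and 0 lower in each line. One of them, AT3G22235, was counted by the mean of its disagreeing probes and rests on A_84_P812910 alone, and without it 3 of 10 were higher in each line. These 3 were AT2G32190, AT2G32200 and AT2G32210, cysteine-rich genes with neighbouring locus numbers. AT2G32190 was at 1.83 in AtC3H17 OX and 2.14 in atc3h17-1, AT2G32200 at 1.67 and 1.72, and AT2G32210 at 1.34 and 1.22. Of the 11, 0 were at least 2-fold apart between AtC3H17 OX and atc3h17-1.

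Of 16 listed relatives of EARLI1 and DIR1 15 were kept, with a median of -0.14 in AtC3H17 OX and -0.50 in atc3h17-1. Without the second AtC3H17 OX array the AtC3H17 OX median was -0.26. In AtC3H17 OX 0 were at least 2-fold higher and 1, AZI4, lower, and in atc3h17-1 0 were higher and 7 lower. AIR1, known from auxin-treated roots, was at -0.89 in AtC3H17 OX and at -3.0 in atc3h17-1. AT5G46890 was at -0.59 and -2.77, AT4G12545 at -0.14 and -2.02, and AT5G46900 at -0.29 and -2.01. In atc3h17-1, AZI1, EARLI1 and AZI3 all stayed within 2-fold of WT.

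At the median, root markers were lower than WT in both lines, and more so in atc3h17-1. Of the 12 kept, 0 were at least 2-fold higher and 2 lower in AtC3H17 OX, and 0 were higher and 10 lower in atc3h17-1, with medians of -0.59 and -2.21. Their summed level, in multiples of the array's 75th percentile, was 14.7 on each AtC3H17 OX array and 12.5 on the atc3h17-1 array, against 18.4 on the WT array. PYK10, a root beta-glucosidase gene within 2-fold of WT in both lines, made up most of each sum, with 12.3 and 12.4 on the AtC3H17 OX arrays and 11.7 on the atc3h17-1 array, against 14.6 on the WT array. The other 11 markers summed to 2.38 and 2.29 on the AtC3H17 OX arrays and 0.812 on the atc3h17-1 array, against 3.801 on the WT array. CASP4 and CASP5 were not well above background in atc3h17-1. The part of root tissue in the values of EARLI1, AZI3 and DIR1 was not tested. Leaf markers summed to 585 and 580 on the AtC3H17 OX arrays and 565 on the atc3h17-1 array, against 527 on the WT array. Of 7 seed storage markers, 4 were well above background in AtC3H17 OX and 0 in either other genotype.

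The genes on either side of the 9 mostly did not share their differences. Within 3 protein-coding genes on each side there were 43 other genes, of which 30 were measured. In AtC3H17 OX 3 of the 30 were at least 2-fold higher and 1 lower, and in atc3h17-1 1 was higher and 3 lower. The shares over all genes were 4.37% and 2.78% in AtC3H17 OX and 4.34% and 4.24% in atc3h17-1. Without AT3G22235, whose probes disagreed, 2 of 29 were higher in AtC3H17 OX and 0 in atc3h17-1. Those higher in AtC3H17 OX, named after their values were seen, were AT3G22235, AT2G18670 next to PNP-A (1.13) and AT4G12450 near AZI1 (1.23). The lower one was AZI4 (-1.23). Those lower in atc3h17-1 were AT5G52790 near SARD4 (-1.62), AZI4 (-1.01) and AT4G12510 near AZI3 (-1.47). AT4G12510 stood at -0.83 in AtC3H17 OX, so AZI4 and AT4G12510 were lower than WT in both lines, as AZI3 was. AT2G18670 stood at 0.67 in atc3h17-1, far below the 5.76 of PNP-A itself.

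PNP-A and PCC1 lay close to each other in level pattern, at a Euclidean distance of 0.91 over the 4 arrays, while FMO1 lay at 2.99 from PNP-A and at 2.503 from PCC1. Outside the 9 genes, those most like PNP-A, PCC1 and FMO1 were sought among 18776 genes with every probe well above background, by the same distance between levels centred on each gene's mean. All 4 arrays enter, so the measure is dominated by the gap to the WT array. GSTU11, a tau-class glutathione S-transferase gene, was nearest to both PNP-A (distance 0.69) and PCC1 (distance 0.22), with levels of 0.58 and 0.57 on the AtC3H17 OX arrays and -0.30 on the atc3h17-1 array, against -5.12 on the WT array. The anthocyanin regulator PAP1, the late embryogenesis gene GEA6 and GSTU4 followed for both, at distances of 1.50, 1.69 and 1.79 for PNP-A and 1.14, 0.90 and 0.95 for PCC1. GSTU11 (0.221) and GEA6 (0.898) were thus nearer to PCC1 than PNP-A was (0.905). PAP1 was farther from PCC1 than PNP-A was, and GSTU4 slightly so (0.951). FMO1 had AT1G12030, the asparagine synthetase gene ASN1, the isochorismate synthase gene ICS2 and the sulfur-deficiency gene LSU1 at distances of 0.22, 0.22, 0.22 and 0.23. The nearest gene of PNP-A outside the 9 was farther away than those of PCC1 and FMO1.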

How the data were processed

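The 4 arrays of 3 groups were used, grouped by the labels' genotype. Per the file headers, Agilent Feature Extraction 11.0.1.1 made the deposited intensities, with background subtraction and detrending. The deposited marks per spot (well above background, saturated, outlier) come from the same software, and no spot was saturated. The deposited series value table holds the same linear intensities (column medians of 620 and 611 for AtC3H17 OX, 580 for atc3h17-1 and 616 for WT), neither centred nor scaled between arrays, and served as an alternative.

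Control and outlier spots were left out (70 probes), repeated spots averaged, and a probe kept if 1 or more groups had it well above background on all their arrays. Of 43603 probes 34348 were matched to 1 locus through TAIR10.1 RefSeq accessions, which served for names and gene order. The array follows TAIR10, and no coordinates are given. A gene's level is the mean of its kept probes. Folds against a probe below background, written as at least, are nominal bounds. They set the bright group's mean against the higher of the dim spot and the dimmest well-above-background signal. Some brighter spots were not called well above background, so these bounds are not guaranteed minima. The arrays' number limits the precision.

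A gene was counted at 2-fold or more, on both AtC3H17 OX arrays where these enter. The counting code was run on simulated data with less noise than the WT array. That run checks the arithmetic only and does not measure false 2-fold counts. The members and lists were chosen with earlier results of these data known. Named genes are the members, up to 4 genes per list at least 2-fold from WT with the largest differences, and the 4 nearest in level pattern. Python 3.11.15 and R 4.3.3 with limma 3.58.1 (normexp, quantile) were used. Normexp was applied to the spots' median signals and not to the processed signals. All arrays lay on 1 slide read on 1 day, so no batch could be tested.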

Additional observations from a re-analysis of the deposited data

How the results depend on the processing

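Alternatives were normexp correction with an offset of 50, quantile normalization, no filter on dim probes, probes well above background on all 4 arrays, the brightest probe of a gene, the series value table, either AtC3H17 OX array left out and, chosen after seeing the data, removal of a position trend on each array. Of the 9 genes, 4 stayed at least 2-fold higher in AtC3H17 OX than in WT except with normexp and with the all-array filter, where 3 did, without ALD1. EARLI1 stayed at least 2-fold lower and, in atc3h17-1, 3 genes at least 2-fold higher throughout. In AtC3H17 OX against atc3h17-1, 2 of the 9 (PCC1 and ALD1) were at least 2-fold higher, and 1 with either of those settings. The difference of PNP-A from WT ranged from 4.97 to 6.0 in AtC3H17 OX and from 4.75 to 5.76 in atc3h17-1, that of PCC1 from 4.40 to 5.72 and from 3.36 to 4.65, with the lowest value from normexp each time.

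Over all genes, normexp gave 286 lower in AtC3H17 OX (main count 568), 424 lower in atc3h17-1 (868), and 178 higher and 136 lower between AtC3H17 OX and atc3h17-1 (573 and 339). Probes above background on all arrays gave 591 higher (894) and 349 lower in AtC3H17 OX, 429 higher (889) and 470 lower in atc3h17-1, and 319 higher and 90 lower between the lines. Fewer genes enter this last setting, which also left no seed storage marker to summarise. Without 1 AtC3H17 OX array, 1003 to 1045 genes were higher and 643 to 687 lower than WT. No paired analysis was possible because each genotype had 1 sample. The WT array's position trend at the members' spots lay between -0.13 and 0.12, small beside the differences of PNP-A, PCC1 and FMO1. It was not small beside those of SARD4, or of AZI1 and DIR1 in atc3h17-1. With the trend removed, AZI1 in atc3h17-1 was at -0.05 (main value -0.09) and DIR1 at -0.08 (main value -0.16). Signals near background limit ALD1, SARD1, NIMIN1, PR1 and the WT level of PCC1, and the WT spot of PNP-A was dim.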
